A study of Mus musculus with 12 samples.

Results

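Effector lineage transcription factors were followed as 10 genes, Tbx21, Eomes, Prdm1, Batf, Irf4, Id2, Zeb2, Stat4, Hopx and Ahr, of 31053 genes in the deposited count matrices. The 10 were taken by name, and all 10 were detected and passed the filter on low counts in the 3 main fits. The study profiled T cells from the islets of female NOD mice, a strain that develops autoimmune diabetes, at 12 weeks of age and before diabetes. Live cells carrying a T cell receptor (TCR) were sorted, and 4 biological replicates each gave mRNA, surface antibody and TCR libraries by 5′ single-cell capture. No treatment or engineered allele was labelled, and whether each replicate was 1 mouse or pooled mice is not stated.

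Regulatory T cells (Treg) were barcodes with an antibody CD4 count of at least 40, no Cd8a or Cd8b1 count and at least 1 Foxp3 count, a unique molecular identifier (UMI) being 1 count. CD8 cells had an antibody CD4 count under 20 and at least 2 UMIs of Cd8a and Cd8b1. Conventional CD4 cells were gated as Treg but had no Foxp3 UMI. Foxp3-expressing cells with no captured Foxp3 UMI therefore fall in this group, and their number was not estimated. Each lineage was split by antibody CD62L, a lymph node homing receptor, into CD62L-low cells (count of at most 3) and CD62L-high cells (at least 10). This gave 771 CD62L-low and 261 CD62L-high Treg, 2436 CD62L-low and 1289 CD62L-high CD8 cells, and 5523 CD62L-low and 4079 CD62L-high conventional CD4 cells. UMIs were summed per library and population, and levels are given as CPM, a gene's UMIs scaled by that sum. Because capture at the 5′ end differs between genes, CPM values are compared for the same gene across populations, not between genes.

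T-bet (encoded by Tbx21) and Eomes are related T-box factors that drive interferon-γ and cytotoxic genes in T cells and NK cells. STAT4 carries the interleukin-12 signal that induces T-bet, and ZEB2 is a repressor that acts with T-bet in terminal effector CD8 cells. BATF and IRF4 bind DNA together downstream of the T cell receptor. Blimp-1 (Prdm1) is a transcriptional repressor that promotes effector differentiation and is also used by effector Treg. ID2 blocks E proteins, HOPX is a small homeodomain protein that does not bind DNA itself, and AHR is a ligand-activated receptor of environmental and tryptophan-derived compounds.

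The 4 mRNA libraries held 4136 to 8718 barcodes and 26861163 to 37834174 UMIs, and 3349 to 7263 barcodes passed the filters. Replicates 3 and 4 stood apart: 39.3% and 32.8% of their kept barcodes fell in no lineage, against 10.7% and 13.6% in replicates 1 and 2. Their antibody CD11a count was under 20 in 36.7% and 29.8% of kept barcodes, against 4.12% and 5.17%. Any pair of libraries shared 36 to 102 cell barcodes, at most 1.5% of the smaller library. The gates held against their markers. The 4 T cell genes summed to 2513 to 3965 CPM in every population. The naive or recirculating list summed to 452 to 615 CPM in CD62L-low Treg and 1211 to 1983 CPM in CD62L-high Treg, with no overlap between low and high in CD8 or conventional CD4 cells either. The NK list summed to 46.2 to 162 CPM in CD62L-low CD8 cells and 8.68 to 33.5 CPM in CD62L-high CD8 cells, with Klrb1c at 0 in the CD62L-low cells. Innate lymphoid or gamma-delta genes summed to 95.2 to 122 CPM in CD62L-low CD8 cells and 5.47 to 20.2 CPM in CD62L-high CD8 cells. The part of these non-conventional cells in the CD8 results was not tested.

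The stretches just upstream of the transcription start of the contrasted factors are shown because their mRNAs behaved differently across the same cells. They are RefSeq windows of 250 bases on GRCm38.p6, printed 5′ to 3′ on the gene's strand, with motif matches in capitals. The 5 motifs were searched on both strands, none overlapping another in these windows.
Tbx21, chr11:97115332-97115581, minus strand: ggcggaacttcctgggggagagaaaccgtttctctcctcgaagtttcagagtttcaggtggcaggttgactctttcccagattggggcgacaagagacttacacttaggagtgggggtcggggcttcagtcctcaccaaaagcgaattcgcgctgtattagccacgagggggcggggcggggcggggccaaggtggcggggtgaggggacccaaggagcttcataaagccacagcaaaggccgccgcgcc
Eomes, chr9:118477939-118478188, plus strand: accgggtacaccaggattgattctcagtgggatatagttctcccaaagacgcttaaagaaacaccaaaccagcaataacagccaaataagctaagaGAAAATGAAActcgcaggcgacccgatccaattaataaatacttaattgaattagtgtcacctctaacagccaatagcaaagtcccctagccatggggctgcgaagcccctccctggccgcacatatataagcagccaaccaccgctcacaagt
Prdm1, chr10:44458749-44458998, minus strand: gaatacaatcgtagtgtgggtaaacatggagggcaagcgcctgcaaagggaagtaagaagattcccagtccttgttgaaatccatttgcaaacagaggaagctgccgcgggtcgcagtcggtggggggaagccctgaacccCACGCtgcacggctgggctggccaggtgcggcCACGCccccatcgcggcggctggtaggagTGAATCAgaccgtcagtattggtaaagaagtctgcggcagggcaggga
The Eomes window held 1 interferon regulatory factor repeat (GAAA, any 2 bases, GAAA), found in 2.98% of 32851 such windows. The Prdm1 window held 1 AP-1 motif of the kind bound by BATF (TGANTCA, in 6.75% of windows) and 2 AHR cores (GCGTG, in 28.2%). The Tbx21 window held none of these, nor the T-box motif TCACAC (12.3%) or the STAT motif TTCNNNGAA (7.02%), and the T-box and STAT motifs were absent from all 3. The printed Prdm1 window lies inside the gene's annotated span, upstream of an internal transcript start, and matches describe letters only. The gene bodies lie on chromosome 11 (97098007 to 97115331) for Tbx21, chromosome 9 (118478186 to 118486132) for Eomes and chromosome 10 (44437174 to 44528558) for Prdm1. The oligo tags that carried the gating antibodies were aacaagacccttgag for CD4 and tgggcctaagtcatc for CD62L.

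Most of the factors were higher in CD62L-low than in CD62L-high cells. In Treg, 5 of 10 members were higher (Tbx21, Id2, Hopx, Ahr and Batf) and none was lower, where 2.79% of 10654 tested genes were called higher, 2.85% lower and 5.64% either way. In CD8 cells 9 members were higher, all but Stat4, against 23.1% of genes called higher and 41.9% either way. Among conventional CD4 cells 8 members were higher, all but Eomes and Zeb2, against 20.7% of genes called higher and 38.6% either way. The members' median log2 fold change was 0.95 in Treg, 1.35 in CD8 cells and 1.33 in conventional CD4 cells, beside 0.01, 0.01 and -0.00 for all tested genes. Differences are log2 fold changes ± SE over 4 libraries; called differences had the same direction in all 4 unless stated, and for the others the number of libraries is given where it was under 4. Adjusted p-values are those of edgeR's quasi-likelihood test with library as a block and Benjamini-Hochberg adjustment over all genes tested. They measure the spread between these libraries.

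**Figure D1:**
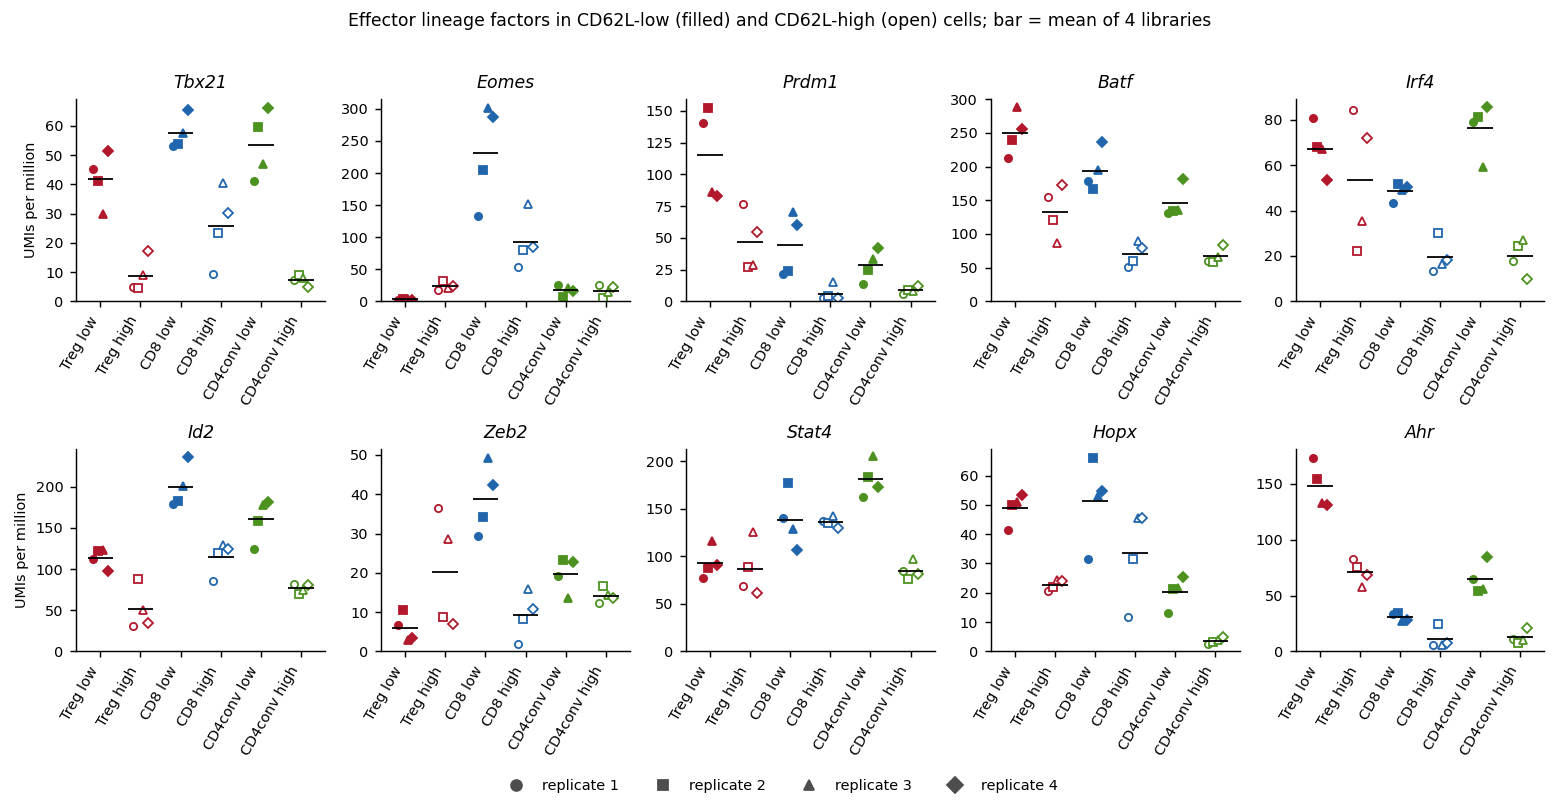
Level of each factor in CPM (y axis) in 6 populations (x axis: Treg, CD8 and conventional CD4 cells, CD62L-low then CD62L-high); each marker is 1 library, filled for CD62L-low and open for CD62L-high, and the bar is the mean. Eomes is highest in CD62L-low CD8 cells (133 to 301 CPM) and lowest in CD62L-low Treg (2.22 to 3.70 CPM), while Tbx21 spans 29.7 to 66.2 CPM in the CD62L-low cells of all 3 lineages.

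Tbx21 was higher in CD62L-low cells of every lineage and was not called between the CD62L-low lineages. Its level was 45.1, 41.2, 29.7 and 51.4 CPM in CD62L-low Treg of replicates 1 to 4, against 4.78, 4.43, 8.82 and 17.2 CPM in CD62L-high Treg. In CD8 cells it was 53.1, 53.9, 57.5 and 65.5 CPM in CD62L-low and 9.43, 23.2, 40.4 and 30.3 CPM in CD62L-high cells, and in conventional CD4 cells 41.2, 59.6, 47.1 and 66.2 CPM in CD62L-low and 7.44, 8.86, 7.79 and 4.77 CPM in CD62L-high cells. Low and high did not overlap in any lineage, and the CD62L-high CD8 cells were the most spread. The log2 fold change was 2.12 ± 0.49 in Treg (adjusted p = 0.016), 1.11 ± 0.25 in CD8 cells (adjusted p = 0.0014) and 2.74 ± 0.25 in conventional CD4 cells (adjusted p = 7.1e-08). Without replicate 2 the Treg difference was 2.04 (adjusted p = 0.11), resting on 1 to 10 UMIs per library in CD62L-high Treg. The Treg call was also lost within replicates 3 and 4 (1.61, adjusted p = 0.12). It was 2.18 (adjusted p = 0.11) without barcodes of 3 or more myeloid marker UMIs, which are described below. With 1 cell per clonotype the difference was 0.74 (adjusted p = 0.1) in CD8 cells and 1.93 (adjusted p = 0.059) in Treg. Between CD62L-low lineages the difference was -0.37 ± 0.22 for Treg minus conventional CD4 (adjusted p = 0.25, 3 of 4 libraries), -0.52 ± 0.23 for Treg minus CD8 (adjusted p = 0.11) and 0.15 ± 0.19 for CD8 minus conventional CD4 (adjusted p = 0.55, 3 of 4 libraries). B cell barcodes without CD3 mRNA, taken as a background for free RNA, had 8.66, 0, 14.2 and 21.6 CPM, a range that the CD62L-high levels of Treg and conventional CD4 cells fall in.

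Eomes separated the lineages by far. It had 133, 205, 301 and 287 CPM in CD62L-low CD8 cells, against 52.8, 79.3, 151 and 84.5 CPM in CD62L-high CD8 cells, with CD62L-low higher within each library. In Treg it had 2.22, 3.70, 2.79 and 2.71 CPM in CD62L-low cells (3 to 8 UMIs per library) and 17.5, 31.0, 19.9 and 24 CPM in CD62L-high cells (7 to 14 UMIs), and in conventional CD4 cells 25.8, 6.34, 21.4 and 16.4 CPM in CD62L-low and 25, 5.21, 13.8 and 22.2 CPM in CD62L-high cells. B cell barcodes had 0 to 1.26 CPM. The CD62L difference was 1.31 ± 0.32 in CD8 cells (adjusted p = 0.0037), but -2.77 ± 1.12 in Treg (adjusted p = 0.17) and -0.18 ± 0.40 in conventional CD4 cells (adjusted p = 0.76, 2 of 4 libraries). All 4 libraries had less Eomes in CD62L-low Treg, without passing the test. Without replicate 4 the CD8 difference was 1.16 (adjusted p = 0.078), within replicates 1 and 2 it was 1.44 (adjusted p = 0.23), and with 1 cell per clonotype 0.56 (adjusted p = 0.34).

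Between CD62L-low lineages, Eomes was lower in Treg than in CD8 cells by -6.28 ± 0.56 (adjusted p = 3.5e-07) and higher in CD8 than in conventional CD4 cells by 3.79 ± 0.33 (adjusted p = 2.5e-07); both calls kept their side in all 18 alternative settings. It was also lower in Treg than in conventional CD4 cells (-2.49 ± 0.80, adjusted p = 0.033), a call that was lost without replicate 2 (-3.06, adjusted p = 0.053), replicate 3 (-2.38, adjusted p = 0.12) or replicate 4 (-2.43, adjusted p = 0.16). An Eomes UMI was found in 1.45% of CD62L-low Treg, 41.4% of CD62L-low CD8 cells and 2.94% of CD62L-low conventional CD4 cells, against 0.318% of B cell barcodes. Shares in this paragraph are unweighted means of the 4 libraries. With every cell thinned to 1500 UMIs, the shares were 0.396%, 23.7%, 1.51% and 0%. A Tbx21 UMI was found in 19.2%, 24.1% and 16.5% of the same 3 populations and 1.65% of B cell barcodes, and after thinning in 6.2%, 8.53%, 7.37% and 0.716%. Cells under 1500 UMIs were left out of the thinned shares, 23 of the Treg, 399 of the CD8, 445 of the conventional CD4 cells and 87 of the B cell barcodes. Median depth was 4724 UMIs in Treg, 4345 in CD8 cells, 3547 in conventional CD4 cells and 3657 in B cell barcodes.

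The balance of the T-box pair was given as the percent of Tbx21 plus Eomes UMIs that were Tbx21. It separated the CD62L-low lineages in every library. In Treg and conventional CD4 cells it was higher in the CD62L-low cells of every library, which was not tested. The CD8 balance did not follow CD62L. The balance was 95.3, 91.8, 91.4 and 95.0% in CD62L-low Treg, against 21.4, 12.5, 30.8 and 41.7% in CD62L-high Treg. Most of these few UMIs were thus Tbx21 in the CD62L-low and Eomes in the CD62L-high cells. In CD8 cells it was 28.5, 20.8, 16.0 and 18.6% in CD62L-low and 15.2, 22.7, 21.1 and 26.4% in CD62L-high cells, which overlapped fully. For conventional CD4 cells it was 61.5, 90.4, 68.7 and 80.1% in CD62L-low and 23.0, 63.0, 36.0 and 17.7% in CD62L-high cells. Among CD62L-low cells, Treg averaged 93.4 ± 2.07%, CD8 cells 21.0 ± 5.38% and conventional CD4 cells 75.2 ± 12.7% (SD, n = 4). In exact two-sided sign-flip permutation tests over the 4 libraries, Treg were 18.2 ± 13.7 points above conventional CD4 cells (p = 0.125), and CD8 cells were -54.2 ± 15.7 points from them (p = 0.125). The CD62L-low minus CD62L-high difference of CD8 cells was -0.352 ± 9.45 points (exact permutation p = 1.00). With 4 libraries 0.125 is the smallest p this test allows, and over the 3 tests the adjusted p of the first 2 was 0.188.

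**Figure D2:**
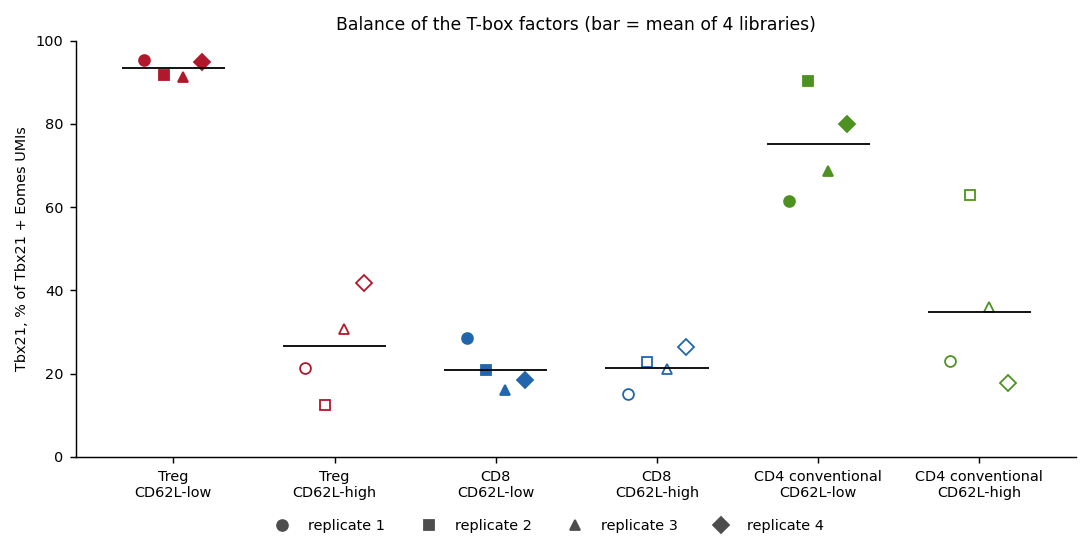
Percent of Tbx21 plus Eomes UMIs that were Tbx21 (y axis) in 6 populations (x axis), 1 marker per library, with the mean as a bar. CD62L-low Treg sit between 91.4 and 95.3%, CD62L-low CD8 cells between 16.0 and 28.5%, and CD62L-low conventional CD4 cells between 61.5 and 90.4%.

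The CD62L difference itself was compared between lineages. It was smaller in CD8 than in conventional CD4 cells for Tbx21 (-1.63 ± 0.37, adjusted p = 0.018, 3 of 4 libraries), Hopx (-1.73 ± 0.28, adjusted p = 2.7e-04) and Stat4 (-1.04 ± 0.16, adjusted p = 1.9e-04), so 3 of 10 members were called lower, where 2.40% of genes were called lower and 3.65% either way. For Eomes the difference of differences was 1.49 ± 0.51 (adjusted p = 0.14), for Zeb2 1.69 ± 0.54 (adjusted p = 0.10) and for Prdm1 1.07 ± 0.90 (adjusted p = 0.60). The Tbx21 call was lost without replicate 2 (-1.59, adjusted p = 0.094), replicate 3 (-1.32, adjusted p = 0.11) or replicate 4 (-1.37, adjusted p = 0.24). It was -0.60 (adjusted p = 0.77) within replicates 1 and 2 and -2.30 (adjusted p = 0.0024) within replicates 3 and 4. The Hopx value was -1.07 (adjusted p = 0.46) within replicates 1 and 2 and -2.12 (adjusted p = 0.00013) within replicates 3 and 4.

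Within CD62L-low CD8 cells, 680 had Eomes but no Tbx21 UMI, 215 had Tbx21 but no Eomes UMI, 385 had both and 1156 had neither. Median depth was 5236, 5273, 10868 and 3232 UMIs in that order, so the cells with both were the deepest and those with neither the shallowest. When Eomes-only cells were set against Tbx21-only cells, none of the other 8 members was called by edgeR or by DESeq2, and 2 had an unadjusted p under 0.05 in edgeR, where 0.395% of 6841 genes (27) were called. Prdm1 had 24.2, 30.8, 67.8 and 73.4 CPM in Eomes-only and 14.5, 28.5, 34.8 and 44.3 CPM in Tbx21-only cells (0.59 ± 0.24, adjusted p = 0.77). Ahr had 46.6, 34.7, 19.5 and 20.1 CPM in Eomes-only and 37.3, 63.8, 28.5 and 76.3 CPM in Tbx21-only cells (-0.87 ± 0.33, adjusted p = 0.69, 3 of 4 libraries). Within replicates 1 and 2 Ahr was -0.37 (adjusted p = 0.77), and within replicates 3 and 4 it was -1.47 (adjusted p = 0.0057). Hopx, at -0.14 over all 4 libraries, was called in opposite directions in the same pairs. It was 1.56 (adjusted p = 0.0002) in replicates 1 and 2 and -1.40 (adjusted p = 3.6e-05) in replicates 3 and 4. Among the genes of the fixed lists, Tox, an exhaustion-associated factor, was higher in Eomes-only cells (0.85 ± 0.14, adjusted p = 0.019). Gzma (-2.83 ± 0.37, adjusted p = 0.030), a granzyme, Gata3 (-1.47 ± 0.28, adjusted p = 0.038), Il18r1 (-1.26 ± 0.22, adjusted p = 0.026) and Lgals3 (-1.16 ± 0.22, adjusted p = 0.049) were lower. Named after their values were seen, Entpd1 (1.63), Il10ra (1.26) and Tox2 (1.09) were also called higher, and Nrp1 (-1.91) and Itgb1 (-0.96) lower. The count of called genes ran from 1 to 111 when 1 library was left out.

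In cells thinned to 1500 UMIs, the number of CD62L-low CD8 cells with both Tbx21 and Eomes was 1.11, 1.14, 1.44 and 1.04 times the number expected if the 2 were independent (1.18 ± 0.174, SD, n = 4), from 5, 7, 22 and 20 such cells. Prdm1 and Eomes gave 1.77 ± 0.592 in CD8 cells. Prdm1 and Tbx21 gave 2.40, 2.31, 2.11 and 2.07 in conventional CD4 cells, from 2 to 16 cells a library, and 0, 2.32, 0.605 and 0.837 in CD8 cells. Ahr and Prdm1 gave 1.54 ± 0.336 in Treg and 3.99 ± 1.46 in conventional CD4 cells. These ratios are descriptions from few cells.

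Zeb2, which myeloid cells also express, was higher in CD62L-low CD8 cells. It had 29.3, 34.1, 49.2 and 42.4 CPM in CD62L-low and 1.89, 8.20, 15.9 and 10.8 CPM in CD62L-high CD8 cells, without overlap (2.07 ± 0.41, adjusted p = 6.7e-04, kept in all 18 alternatives). It had 6.65, 10.6, 2.79 and 3.38 CPM in CD62L-low and 36.6, 8.85, 28.7 and 6.86 CPM in CD62L-high Treg (-1.82 ± 0.67, adjusted p = 0.12, 3 of 4 libraries). Conventional CD4 cells had 19.2, 23.2, 13.7 and 22.8 CPM in CD62L-low and 12.2, 16.7, 14.3 and 13.5 CPM in CD62L-high cells (0.38 ± 0.32, adjusted p = 0.38, 3 of 4 libraries). B cell barcodes had 45.3 to 96.1 CPM. Barcodes with at least 3 UMIs of the myeloid genes Lyz2, Cst3, Csf1r, Itgax and C1qa were 24.9% of CD62L-low Treg but held 72.5% of their Zeb2 UMIs, and 14.6% of CD62L-high Treg with 92.9%. They were 10.3% of CD62L-low CD8 cells with 31.8% of the Zeb2 UMIs, and 3.57% of CD62L-high CD8 cells with 42.9%. In conventional CD4 cells they were 7.12% of CD62L-low cells with 46.8%, and 3.41% of CD62L-high cells with 89.5%. These barcodes were deep. Of all UMIs they held 46% in CD62L-low and 41.5% in CD62L-high Treg, and 30.4% and 9.85% in CD8 cells. In conventional CD4 cells they held 18.9% and 8.85%. The Zeb2 share of CD62L-low CD8 cells was thus near their share of all UMIs, while in the other populations it was higher.

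Without those barcodes, an alternative chosen after seeing the data, Zeb2 in conventional CD4 cells had 11.7, 13.5, 11.8 and 14.9 CPM in CD62L-low and 2.38, 1.13, 0.234 and 2.19 CPM in CD62L-high cells, a called log2 fold change of 2.89. The myeloid genes summed to 216 to 418 CPM in CD62L-low and 185 to 1116 CPM in CD62L-high Treg, 125 to 256 and 125 to 1031 CPM in CD8 cells, and 210 to 379 and 502 to 812 CPM in conventional CD4 cells, with none of the 5 at 0. Among CD62L-low cells, Zeb2 was lower in Treg than in CD8 cells (-2.66 ± 0.44, adjusted p = 1.7e-04) and than in conventional CD4 cells (-1.65 ± 0.46, adjusted p = 0.015). The second of these was lost without replicate 2 (-2.12, adjusted p = 0.051) or replicate 4 (-1.36, adjusted p = 0.11). With 1 cell per clonotype that difference was 0.16 (adjusted p = 0.86). It was -0.83 (adjusted p = 0.39) with cells thinned to 1500 UMIs and -1.19 (adjusted p = 0.2) without cycling cells. Zeb2 was higher in CD8 than in conventional CD4 cells (1.01 ± 0.28, adjusted p = 0.0080), but not without replicate 3 (0.74, adjusted p = 0.067).

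Stat4, which lies upstream of T-bet, was called by CD62L in conventional CD4 cells. There it had 162, 184, 206 and 173 CPM in CD62L-low and 84.4, 76.6, 97.3 and 81.7 CPM in CD62L-high cells (0.96 ± 0.11, adjusted p = 1.1e-07). CD8 cells had 140, 177, 129 and 107 CPM in CD62L-low and 137, 135, 142 and 130 CPM in CD62L-high cells (-0.08 ± 0.12, adjusted p = 0.60, 3 of 4 libraries), and Treg 77.6, 88.0, 116 and 91.3 CPM in CD62L-low and 68.5, 88.5, 126 and 61.8 CPM in CD62L-high cells (0.12 ± 0.17, adjusted p = 0.77, 3 of 4 libraries). Among CD62L-low cells, Treg had less Stat4 than conventional CD4 cells (-1.01 ± 0.12, adjusted p = 7.0e-07) and than CD8 cells (-0.65 ± 0.12, adjusted p = 1.7e-04), although within replicates 3 and 4 the second was -0.28 (adjusted p = 0.18). CD8 cells had less than conventional CD4 cells (-0.36 ± 0.11, adjusted p = 0.0076), but the difference was -0.28 (adjusted p = 0.12) without replicate 4, 0.04 without cycling cells and 0.01 with cells thinned to 1500 UMIs. B cell barcodes had 114 to 150 CPM of Stat4, as high as CD8 cells.

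Id2 was higher in CD62L-low cells of every lineage: 112, 122, 123 and 98.1 CPM against 30.3, 88.5, 50.7 and 34.3 CPM in Treg (1.34 ± 0.21, adjusted p = 5.1e-04). The averages were 200 ± 25.8 CPM in CD62L-low and 115 ± 19.8 CPM in CD62L-high CD8 cells (0.73 ± 0.13, adjusted p = 1.4e-04), and 161 ± 25.8 and 76.9 ± 5.94 CPM in conventional CD4 cells (0.92 ± 0.13, adjusted p = 4.2e-06; SD, n = 4). Among CD62L-low cells it was lower in Treg than in CD8 cells (-0.88 ± 0.13, adjusted p = 1.9e-05) and than in conventional CD4 cells (-0.53 ± 0.13, adjusted p = 0.0055; -0.38 and adjusted p = 0.077 without replicate 4). The CD8 excess over conventional CD4 cells (0.36 ± 0.12, adjusted p = 0.018) was lost without replicate 1 (0.30), replicate 3 (0.40) or replicate 4 (0.32). With 1 cell per clonotype it was 0.13 (adjusted p = 0.61).

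Hopx was lowest in CD62L-high conventional CD4 cells, with 2.65 to 5.05 CPM, against 13.2, 21.3, 21.8 and 25.4 CPM in CD62L-low ones (2.30 ± 0.21, adjusted p = 1.8e-09). It averaged 49.0 ± 5.26 CPM in CD62L-low and 22.8 ± 1.68 CPM in CD62L-high Treg (1.04 ± 0.26, adjusted p = 0.015), and 51.3 ± 14.3 CPM in CD62L-low and 33.6 ± 16.0 CPM in CD62L-high CD8 cells (0.57 ± 0.16, adjusted p = 0.0064; SD, n = 4). The Treg call was lost without replicate 2 (1.06, adjusted p = 0.056), replicate 3 (1.02, adjusted p = 0.082) or replicate 4 (1.01, adjusted p = 0.085). The CD8 call was lost without replicate 1 (0.36, adjusted p = 0.053) or replicate 2 (0.45, adjusted p = 0.060), and without the library block (0.59, adjusted p = 0.10). Within replicates 3 and 4 it was 0.17 (adjusted p = 0.40), and within replicates 1 and 2 it was 1.24 (adjusted p = 0.0014). Hopx was higher than in conventional CD4 cells in both Treg (1.24 ± 0.16, adjusted p = 1.8e-06) and CD8 cells (1.36 ± 0.14, adjusted p = 1.6e-08), each CD62L-low. With cells thinned to 1500 UMIs the Treg excess was 0.64 (adjusted p = 0.069), while the CD8 call was kept in all 18 alternatives. B cell barcodes had 22.9 to 24.8 CPM.

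**Figure D3:**
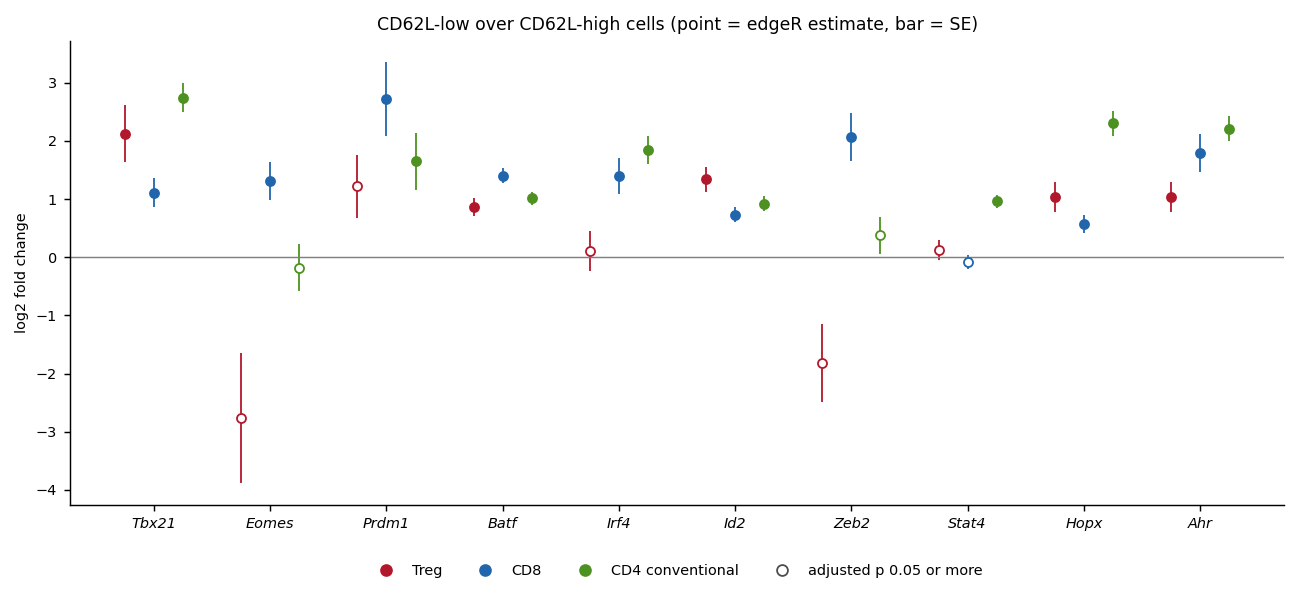
CD62L-low minus CD62L-high log2 fold change (y axis) of the 10 factors (x axis) in Treg, CD8 and conventional CD4 cells. Bars are SE, and filled points have an adjusted p under 0.05. Tbx21, Batf, Id2, Hopx and Ahr are filled in all 3 lineages, and Eomes only in CD8 cells, at 1.31.

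Prdm1 stood highest in CD62L-low Treg. It had 140, 152, 86.4 and 83.2 CPM in CD62L-low Treg and 76.5, 26.6, 28.7 and 54.9 CPM in CD62L-high Treg. In CD8 cells it had 21.8, 23.6, 70.4 and 60.3 CPM in CD62L-low and 2.26, 4.10, 14.9 and 2.89 CPM in CD62L-high cells, and in conventional CD4 cells 13.9, 24.9, 33.1 and 41.8 CPM in CD62L-low and 5.62, 8.86, 8.0 and 11.8 CPM in CD62L-high cells. CD62L-low Treg lay above every other population in every library, replicates 3 and 4 being lower in Treg and higher in CD8 cells than replicates 1 and 2. CD62L-low minus CD62L-high was 2.72 ± 0.64 in CD8 cells (adjusted p = 0.0032), 1.65 ± 0.49 in conventional CD4 cells (adjusted p = 0.015) and 1.22 ± 0.54 in Treg (adjusted p = 0.22). The conventional CD4 call was lost without replicate 3 (1.52, adjusted p = 0.052) or replicate 4 (1.61, adjusted p = 0.074). With 1 cell per clonotype the difference was 2.25 (adjusted p = 0.066) in CD8 cells and 1.12 (adjusted p = 0.089) in conventional CD4 cells. The barcodes with 3 or more myeloid UMIs held 63.1% of the Prdm1 UMIs and 46.0% of all UMIs of CD62L-low Treg, 43.2% and 30.4% in CD62L-low CD8 cells, and 30.3% and 18.9% in CD62L-low conventional CD4 cells. Without them Prdm1 had 124, 85.6, 62.4 and 60.1 CPM in CD62L-low Treg, 20.6, 15.5, 50 and 61.8 CPM in CD62L-low CD8 cells and 12.7, 22.7, 24.2 and 37.1 CPM in CD62L-low conventional CD4 cells. Treg then lay above conventional CD4 cells in every library, but not above CD8 cells in replicate 4.

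Treg exceeded conventional CD4 cells in Prdm1 by 2.10 ± 0.39 (adjusted p = 9.5e-04), with 2.89 (adjusted p = 2.2e-05) within replicates 1 and 2 and 1.13 (adjusted p = 0.036) within replicates 3 and 4. Fitting only the compared populations gave 2.01 (adjusted p = 0.074). Against CD8 cells the excess was 1.42 ± 0.39 (adjusted p = 0.013), but 2.63 (adjusted p = 4.2e-05) within replicates 1 and 2 and 0.28 (adjusted p = 0.54) within replicates 3 and 4. Without replicate 1 it was 1.09 (adjusted p = 0.082), and without replicate 2 it was 1.01 (adjusted p = 0.17). It was 1.14 (adjusted p = 0.063) without the myeloid-positive barcodes and 1.44 (adjusted p = 0.26) when only the compared populations were fitted. CD8 and conventional CD4 cells did not differ past the threshold (0.68 ± 0.38, adjusted p = 0.16, 3 of 4 libraries). A Prdm1 UMI was present in 33.6% of CD62L-low Treg, 13.6% of CD62L-low CD8 cells and 7.15% of CD62L-low conventional CD4 cells, and after thinning to 1500 UMIs in 14.5%, 5.26% and 3.46%. B cell barcodes had 2.17% before and 0.597% after thinning, and all these shares are unweighted means of the 4 libraries.

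Batf and Ahr also averaged highest in CD62L-low Treg. Batf had 213, 240, 289 and 256 CPM in CD62L-low and 155, 120, 86.0 and 172 CPM in CD62L-high Treg (0.86 ± 0.15, adjusted p = 9.5e-04). It had 179, 167, 195 and 236 CPM in CD62L-low and 50.6, 60.2, 89.8 and 78.8 CPM in CD62L-high CD8 cells (1.40 ± 0.13, adjusted p = 3.1e-08), and 131, 134, 136 and 182 CPM in CD62L-low and 60.2, 58.3, 65.1 and 83.1 CPM in CD62L-high conventional CD4 cells (1.01 ± 0.12, adjusted p = 4.2e-07). Within each lineage, CD62L-low and CD62L-high cells did not overlap. Batf was higher in CD62L-low Treg (0.75 ± 0.12, adjusted p = 4.7e-05) and CD8 cells (0.46 ± 0.11, adjusted p = 0.0023) than in conventional CD4 cells, and Treg minus CD8 was 0.29 ± 0.12 (adjusted p = 0.071). With 1 cell per clonotype the CD8 excess was 0.02 (adjusted p = 0.95). B cell barcodes had 29.7 to 40.8 CPM.

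Ahr had 173, 154, 133 and 131 CPM in CD62L-low and 82.9, 75.2, 57.4 and 68.6 CPM in CD62L-high Treg (1.04 ± 0.26, adjusted p = 0.022). The Treg call was lost in 7 of 18 alternatives, among them without replicate 1 (1.08, adjusted p = 0.12) or replicate 3 (1.00, adjusted p = 0.20). With CD62L at most 1 against at least 20 it was 0.76 (adjusted p = 0.13). Without the myeloid-positive barcodes it was 1.00 (adjusted p = 0.17). Those barcodes held 56.7% of the Ahr UMIs and 46% of all UMIs of CD62L-low Treg. CD8 cells had 33.0, 34.6, 27.1 and 28.2 CPM in CD62L-low and 5.66, 24.6, 5.84 and 7.23 CPM in CD62L-high cells (1.79 ± 0.33, adjusted p = 3.2e-04), replicate 2 being the high one. Conventional CD4 cells had 64.9, 53.6, 56.0 and 84.6 CPM in CD62L-low and 11.2, 7.81, 10.4 and 21.1 CPM in CD62L-high cells (2.21 ± 0.22, adjusted p = 2.1e-07). Among CD62L-low cells the order was Treg, conventional CD4, then CD8, with no overlap: Ahr was higher in Treg than in CD8 cells (2.20 ± 0.20, adjusted p = 8.0e-08) and than in conventional CD4 cells (1.16 ± 0.18, adjusted p = 1.1e-04), and lower in CD8 than in conventional CD4 cells (-1.04 ± 0.19, adjusted p = 2.5e-04).

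Irf4, the partner of BATF, had 80.6, 68.1, 66.9 and 53.5 CPM in CD62L-low and 84.5, 22.1, 35.3 and 72.1 CPM in CD62L-high Treg, overlapping (0.11 ± 0.34, adjusted p = 0.91, 2 of 4 libraries). It was 43.2 to 51.8 CPM in CD62L-low and 13.2 to 30.1 CPM in CD62L-high CD8 cells (1.40 ± 0.31, adjusted p = 0.0018), and 59.4 to 85.5 CPM in CD62L-low and 9.83 to 27.0 CPM in CD62L-high conventional CD4 cells (1.84 ± 0.24, adjusted p = 9.8e-06). Among CD62L-low cells it was lower in CD8 than in conventional CD4 cells (-0.60 ± 0.21, adjusted p = 0.027), a call lost without replicate 1 (-0.54), replicate 2 (-0.59) or replicate 4 (-0.57). With 1 cell per clonotype the difference was -0.05 (adjusted p = 0.95), and without cycling cells -0.46 (adjusted p = 0.094). Treg minus conventional CD4 was -0.23 ± 0.23 (adjusted p = 0.52, 3 of 4 libraries). B cell barcodes, whose lineage uses IRF4, had 120 to 192 CPM.

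Counted over the members, 4 were higher and 4 lower in CD62L-low Treg than in conventional CD4 cells, where 12.5% of genes were called higher, 11.9% lower and 24.4% either way. The higher ones were Prdm1, Hopx, Ahr and Batf, and the lower ones Eomes, Zeb2, Stat4 and Id2. Against CD8 cells, Treg had 2 higher (Ahr and Prdm1) and 4 lower (Eomes, Zeb2, Id2 and Stat4), where 13.1% of genes were called higher, 12.2% lower and 25.2% either way. CD8 cells had 5 higher (Eomes, Hopx, Zeb2, Batf and Id2) and 3 lower (Ahr, Irf4 and Stat4) than conventional CD4 cells, where 21.8% were called higher, 20.1% lower and 41.9% either way. Comparisons that share a lineage share its libraries.

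Clones were cells of the same lineage and library with the same paired TCR alpha and beta chain sequences. Expanded cells belonged to clones of 2 or more cells, counted at any CD62L level, and only CD62L-low cells were compared. Clonal expansion went with higher levels of several of these factors in CD8 and conventional CD4 cells, and of 2 in Treg. In expanded CD8 cells, 7 members were higher than in single CD8 cells and Hopx was lower, where 18.1% of genes were called higher, 17.3% lower and 35.4% either way. In expanded conventional CD4 cells 5 were higher and 2 lower, where 10.8% were called higher, 11.3% lower and 22.1% either way. In expanded Treg 2 were higher and none lower, where 1.18% were called higher and 2.35% either way; this comparison was added after the levels were seen. Replicate 3 had 9 expanded Treg, under the minimum of 20, so the Treg fit used its single cells only and 3 expanded libraries. The members' medians were 0.35 in Treg, 1.13 in CD8 and 0.79 in conventional CD4 cells, beside -0.02, 0.00 and -0.01 over all genes. Median depth was 6792 UMIs in expanded and 4961 in single Treg, 7040 and 4694 in CD8 cells, and 4331 and 3751 in conventional CD4 cells.

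In CD8 cells the largest expansion difference was that of Prdm1, which had 4.16, 5.67, 17.0 and 11.2 CPM in single cells, 21.3, 24.7, 45.2 and 33.0 CPM in clones of 2 to 4 and 40.8, 36.3, 90.2 and 71.6 CPM in clones of 5 or more. Each library stepped up at each size (expanded minus single 2.56 ± 0.52, adjusted p = 0.0014). Batf had 67.6, 62.4, 64.5 and 122 CPM in single cells, 178, 165, 191 and 193 CPM in clones of 2 to 4 and 286, 251, 226 and 266 CPM in clones of 5 or more (1.56 ± 0.12, adjusted p = 8.7e-12). Eomes had 58.2, 76.5, 161 and 103 CPM in single cells, 132, 183, 236 and 157 CPM in clones of 2 to 4 and 197, 293, 341 and 341 CPM in clones of 5 or more. Its call (1.46 ± 0.45, adjusted p = 0.022) was lost without replicate 2 (1.37, adjusted p = 0.086), replicate 3 (1.65, adjusted p = 0.059) or replicate 4 (1.38, adjusted p = 0.094). Tbx21 was also called, with 28.1, 34.0, 40.8 and 37.0 CPM in single cells, 79.4, 54.3, 97.9 and 102 CPM in clones of 2 to 4 and 62.1, 61.2, 54.3 and 63.8 CPM in clones of 5 or more (0.79 ± 0.17, adjusted p = 5.4e-04). In 3 of 4 libraries the middle size was the highest for Tbx21, whereas Eomes was highest in the largest clones in all 4. In replicate 3 a single clone of 104 cells made up 25.1% of the CD62L-low CD8 cells with a clone.

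The other CD8 calls were Zeb2 (1.67 ± 0.31, adjusted p = 1.7e-04), Ahr (1.47 ± 0.39, adjusted p = 0.0067) and Irf4 (0.55 ± 0.17, adjusted p = 0.011). Ahr was lost without replicate 1 (1.20, adjusted p = 0.056) and Irf4 without replicate 3 (0.44, adjusted p = 0.089). Zeb2 was 2.66 (adjusted p = 1.1e-05) within replicates 1 and 2 and 0.89 (adjusted p = 0.018) within replicates 3 and 4. Hopx was lower in expanded CD8 cells (-0.54 ± 0.20, adjusted p = 0.040, 3 of 4 libraries), with 27.0, 59.5, 84.9 and 86.8 CPM in single cells, 65.8, 66.6, 108 and 74.4 CPM in clones of 2 to 4 and 25.5, 57.4, 36.7 and 37.3 CPM in clones of 5 or more. That call was lost without replicate 3 (-0.36, adjusted p = 0.26) or replicate 4 (-0.33, adjusted p = 0.28), and it was 0.07 within replicates 1 and 2. Stat4 (-0.28, adjusted p = 0.097) and Id2 (0.15, adjusted p = 0.38, 3 of 4 libraries) were not called.

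**Figure D4:**
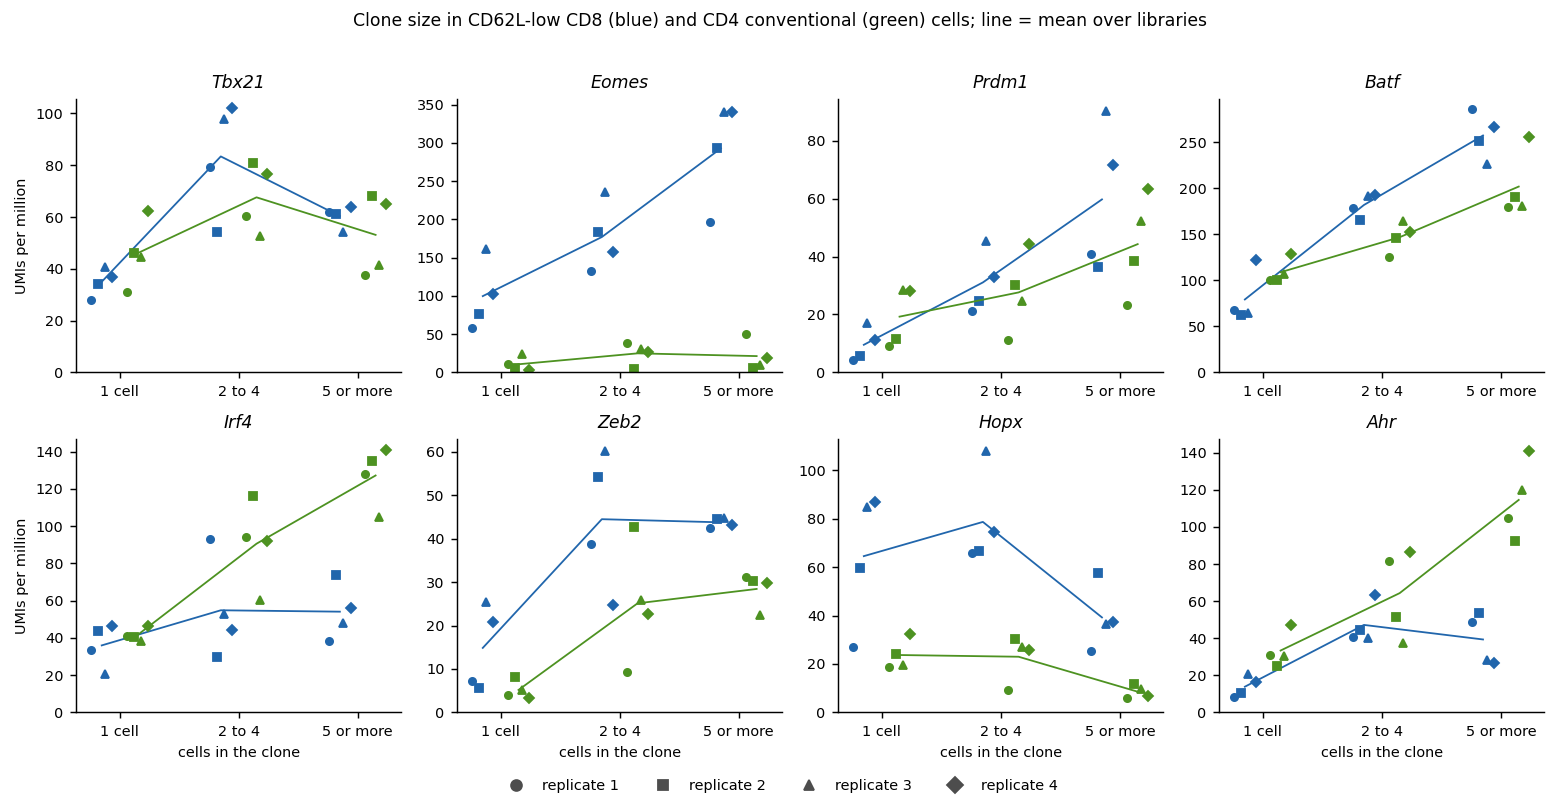
Level in CPM (y axis) of 8 factors in CD62L-low CD8 cells (blue) and conventional CD4 cells (green) by clone size (x axis: single, 2 to 4, 5 or more cells); each marker is 1 library and the line joins the means. In CD8 cells Prdm1 runs up to 90.2 CPM and Batf up to 286 CPM in the largest clones, while Hopx in conventional CD4 cells lies between 5.99 and 11.8 CPM there.

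In conventional CD4 cells Zeb2, Ahr and Irf4 went with expansion in all 19 alternative settings. Zeb2 had 4.10, 8.11, 5.19 and 3.20 CPM in single cells, 9.26, 42.8, 25.8 and 22.6 CPM in clones of 2 to 4 and 31.1, 30.3, 22.5 and 29.8 CPM in clones of 5 or more (2.30 ± 0.29, adjusted p = 2.3e-06). Ahr had 31.0, 25.1, 30.3 and 46.9 CPM in single cells and 105, 92.4, 120 and 141 CPM in clones of 5 or more (1.45 ± 0.22, adjusted p = 1.7e-04). Irf4 had 41.0, 40.5, 38.3 and 46.2 CPM in single cells and 128, 135, 105 and 141 CPM in clones of 5 or more (1.37 ± 0.12, adjusted p = 4.0e-09). For all 3 genes the single cells and the largest clones did not overlap. Batf (0.66 ± 0.10, adjusted p = 7.7e-06) and Stat4 (0.42 ± 0.11, adjusted p = 0.0082) were higher. Hopx (-0.86 ± 0.22, adjusted p = 0.0058) and Id2 (-0.54 ± 0.12, adjusted p = 0.0015) were lower, and the Hopx call was lost without replicate 4 (-0.67, adjusted p = 0.065). With 1 cell per clonotype Batf was 0.32 (adjusted p = 0.32) and Id2 -0.34 (adjusted p = 0.40). Without cycling cells Id2 was -0.26 (adjusted p = 0.16) and Hopx -0.48 (adjusted p = 0.092), and thinned to 1500 UMIs they were -0.12 (adjusted p = 0.57) and -0.25 (adjusted p = 0.63). Tbx21 was not called (0.27 ± 0.13, adjusted p = 0.14, 3 of 4 libraries), with 31.0 to 62.2 CPM in single cells, 52.6 to 80.8 CPM in clones of 2 to 4 and 37.7 to 68.2 CPM in clones of 5 or more. Prdm1 was 0.93 ± 0.34 (adjusted p = 0.062) and Eomes 1.08 ± 0.64 (adjusted p = 0.26, 2 of 4 libraries).

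In Treg, Prdm1 had 230, 202 and 148 CPM in expanded cells of replicates 1, 2 and 4, against 60.5, 118, 84.8 and 71.2 CPM in single cells of replicates 1 to 4, with no overlap (1.48 ± 0.35, adjusted p = 0.041). Ahr had 298, 188 and 236 CPM in expanded and 74.8, 125, 104 and 89.7 CPM in single Treg (1.25 ± 0.26, adjusted p = 0.022). Prdm1 was lost without replicate 1 (1.17, adjusted p = 0.33), replicate 2 (1.83, adjusted p = 0.082) or replicate 3 (1.35, adjusted p = 0.14), and Ahr without replicate 1 (0.93, adjusted p = 0.27). Eomes had no UMI in the expanded Treg of any of the 3 libraries, and 0 to 3 UMIs per library in single Treg.

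The expansion difference was larger in CD8 than in conventional CD4 cells for Batf (0.91 ± 0.15, adjusted p = 4.0e-04) and Id2 (0.69 ± 0.17, adjusted p = 0.020). It was smaller for Irf4 (-0.82 ± 0.21, adjusted p = 0.021) and Stat4 (-0.71 ± 0.17, adjusted p = 0.017). That made 2 members of each sign, where 1.99% of genes were called higher, 3.14% lower and 5.13% either way. Id2 was lost without replicate 1 (0.64), 2 (0.65) or 3 (0.81), Irf4 without replicate 1 (-0.85), 2 (-0.73) or 4 (-0.75), and Stat4 without replicate 1 (-0.77) or 3 (-0.67). Without cycling cells the Irf4 value was -0.01 and that of Stat4 -0.25 (adjusted p = 0.56), and with 1 cell per clonotype they were -0.00 and -0.38 (adjusted p = 0.50). Prdm1 was 1.63 ± 0.67 (adjusted p = 0.19).

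Cycling cells, those with 2 or more UMIs of Mki67, Top2a, Birc5, Cdk1 and Ccnb2, had less Hopx and Id2 than resting cells in all 3 lineages. Median depth was 15498 UMIs in cycling and 3937 in resting Treg, 12419 and 3835 in CD8 cells, and 12932 and 3420 in conventional CD4 cells, and since the split counts UMIs it is not independent of depth. In Treg, a comparison added after the levels were seen, 3 members were lower and none higher, where 21.1% of 10078 genes were called lower, 22.1% higher and 43.2% either way. In CD8 cells 1 was higher and 3 lower, where 29.1% were called higher, 29.2% lower and 58.3% either way. In conventional CD4 cells 3 were higher and 2 lower, where 28.8% were called higher, 28.1% lower and 56.8% either way. These shares are near the background.

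Hopx had 33.3, 39.5, 21.4 and 28.9 CPM in cycling and 50.7, 60.3, 78.2 and 77.1 CPM in resting Treg (-0.91 ± 0.21, adjusted p = 7.2e-04). It had 23.8, 33.0, 32.9 and 26.4 CPM in cycling and 38.6, 87.0, 85.8 and 108 CPM in resting CD8 cells (-1.42 ± 0.15, adjusted p = 6.8e-10), and 5.32, 9.10, 10.2 and 6.51 CPM in cycling and 17.3, 25.1, 25 and 32.8 CPM in resting conventional CD4 cells (-1.66 ± 0.22, adjusted p = 7.7e-08). No lineage's groups overlapped. Id2 was lower in cycling Treg (-0.73 ± 0.20, adjusted p = 0.0063), CD8 cells (-0.45 ± 0.14, adjusted p = 0.012) and conventional CD4 cells (-0.94 ± 0.15, adjusted p = 3.0e-05). With cells thinned to 1500 UMIs Id2 was -0.10 in CD8 and -0.36 in conventional CD4 cells and Hopx -0.80 in Treg (adjusted p = 0.37) and -0.55 in conventional CD4 cells, none called. Within replicates 1 and 2 Hopx in Treg was -0.45 (adjusted p = 0.21). The Id2 call in Treg was also lost without replicate 3 (-0.68, adjusted p = 0.062).

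Stat4 was lower in cycling cells of 2 lineages. It had 54.1, 60.1, 77.9 and 59.3 CPM in cycling and 105, 115, 151 and 122 CPM in resting Treg (-0.87 ± 0.14, adjusted p = 2.2e-06), and 84.1, 120, 90.7 and 80.9 CPM in cycling and 190, 213, 191 and 158 CPM in resting CD8 cells (-0.98 ± 0.10, adjusted p = 6.4e-11). In conventional CD4 cells it had 133, 178, 176 and 166 CPM in cycling and 177, 186, 215 and 176 CPM in resting cells (-0.14, adjusted p = 0.17). The cycling difference was lower in CD8 than in conventional CD4 cells (-0.84 ± 0.13, adjusted p = 2.7e-04); Stat4 was the only member called, where 1.19% of genes were called lower and 1.79% either way. Batf was higher in cycling CD8 (0.48 ± 0.11, adjusted p = 3.2e-04) and conventional CD4 cells (0.44 ± 0.10, adjusted p = 7.1e-04). Thinned to 1500 UMIs these were 0.30 and 0.33 (both adjusted p = 0.14), and within replicates 3 and 4 they were 0.33 (adjusted p = 0.20) and 0.50 (adjusted p = 0.069). Ahr (0.86 ± 0.18, adjusted p = 3.8e-04) and Irf4 (0.42 ± 0.13, adjusted p = 0.0095, 3 of 4 libraries) were higher in cycling conventional CD4 cells, Irf4 not without replicate 2 (0.35) or replicate 3 (0.31). In CD8 cells Prdm1 was 1.13 ± 0.47 (adjusted p = 0.051; called without replicate 4, 1.42, adjusted p = 0.044), Eomes 0.35 (adjusted p = 0.38) and Tbx21 -0.24 (adjusted p = 0.25, 3 of 4 libraries; -0.52, adjusted p = 0.0067 without replicate 1).

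**Figure D5:**
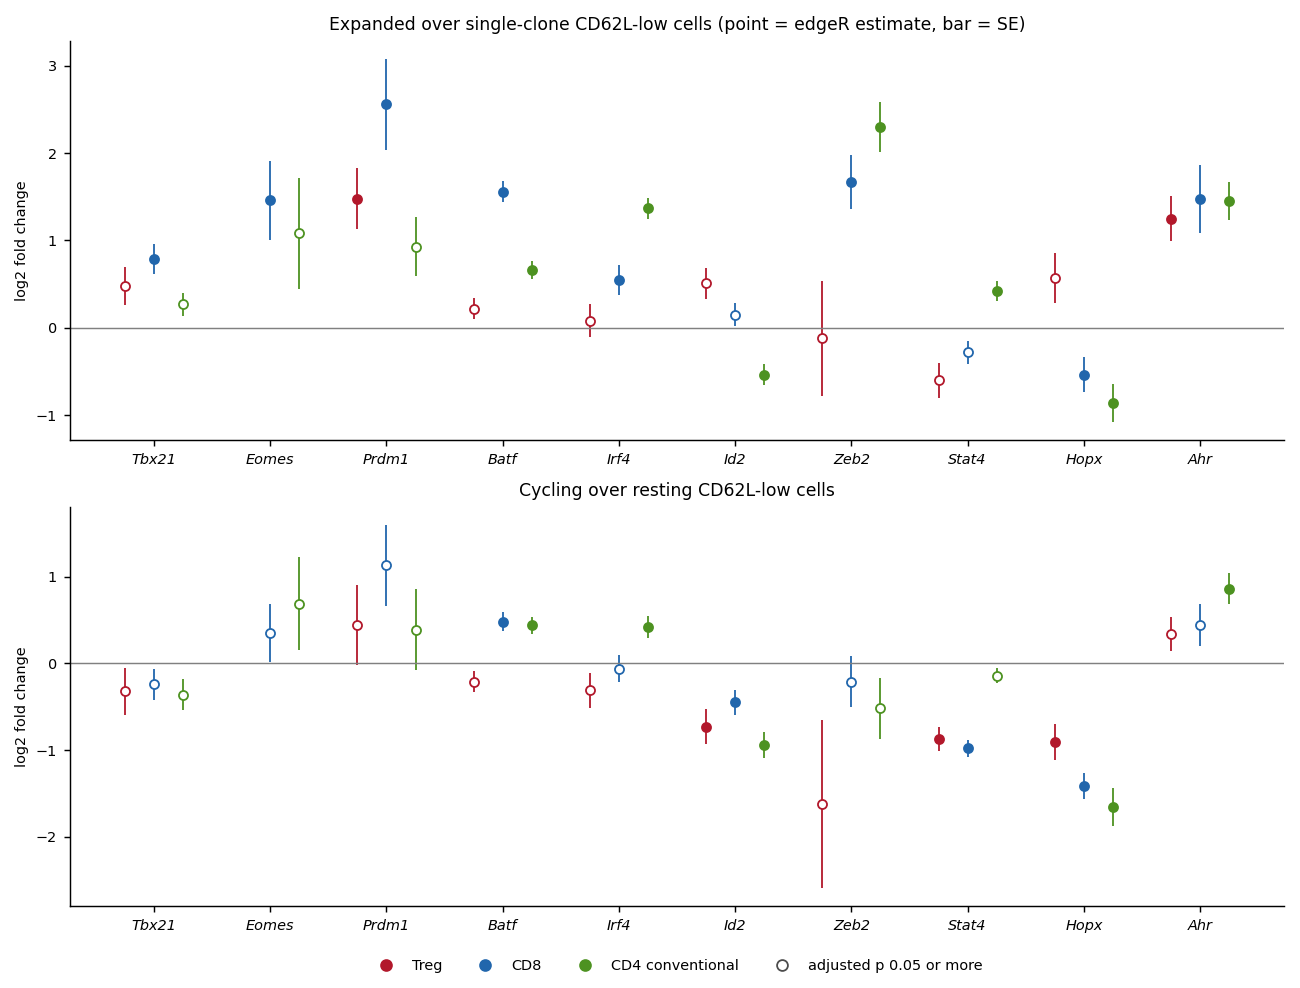
Log2 fold change (y axis) of each factor (x axis) in CD62L-low Treg, CD8 and conventional CD4 cells. The top shows expanded minus single cells and the bottom cycling minus resting cells. Bars are SE, filled points have an adjusted p under 0.05, and Eomes in Treg is not drawn because its SE exceeds 2. Prdm1 stands at 2.56 in expanded CD8 cells, and Hopx lies below 0 in all 3 lineages when cycling.

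Genes known to be linked to these factors were counted by list. Their counts stand against 2.79% of all tested genes called higher and 2.85% lower by CD62L in Treg, 23.1% and 18.9% in CD8 cells, and 20.7% and 17.9% in conventional CD4 cells. Of 16 listed T-bet and Eomes associated targets, 14 were tested. In CD62L-low Treg 1 was higher, the chemokine receptor Cxcr3 (1.32 ± 0.23, adjusted p = 0.0026). In CD62L-low CD8 cells 11 were higher and 1 lower, led by the granzyme Gzmb (3.34 ± 0.90, adjusted p = 0.0073), Klrg1 (2.23 ± 0.63, adjusted p = 0.0073), Fasl (2.01 ± 0.30, adjusted p = 2.3e-05) and Cx3cr1 (1.93 ± 0.66, adjusted p = 0.026). In conventional CD4 cells 10 were higher and 2 lower, led by Ifng (3.30 ± 0.24, adjusted p = 5.1e-09), Klrg1 (3.30 ± 1.11, adjusted p = 0.024, 3 of 4 libraries), Il18rap (2.81 ± 0.30) and Cxcr3 (2.74 ± 0.19). Medians over the tested list were 0.41, 1.30 and 2.10 in Treg, CD8 and conventional CD4 cells, beside 0.01, 0.01 and -0.00 over all genes. CD62L-low CD8 cells exceeded conventional CD4 cells for 9 and fell below them for 2 (median 2.52), led by Klrd1 (4.68 ± 0.19), Gzmb (3.23 ± 0.65), Ccl5 (3.01 ± 0.42) and the pore-forming Prf1 (2.96 ± 0.17). Over all tested genes, 21.8% were called higher and 20.1% lower in that comparison.

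The list kept for BATF, IRF4 and Blimp-1 held 14 genes, all tested, and its calls by CD62L were 3 higher and 1 lower in Treg, 7 and 3 in CD8 cells, and 8 and 3 in conventional CD4 cells. Its medians were 0.78, 1.49 and 1.66 in Treg, CD8 and conventional CD4 cells, beside 0.01, 0.01 and -0.00 over all genes. Lag3, an inhibitory receptor, was higher in CD62L-low Treg (1.58 ± 0.23), CD8 cells (2.57 ± 0.22) and conventional CD4 cells (3.01 ± 0.20). The helper cytokine Il21 was higher in CD62L-low CD8 cells (4.22 ± 1.04, adjusted p = 0.0035) and conventional CD4 cells (3.89 ± 0.28, adjusted p = 5.2e-09). In Treg against conventional CD4 cells, both CD62L-low, Il10 (2.67) and Ctla4 (1.93) were higher and Il2 (-4.80) and Il21 (-3.24) lower. With expansion 6 were called higher in Treg and none lower, against 1.18% of genes called higher, among them Havcr2 (1.93), Il10 (1.83), Lag3 (1.54) and Ctla4 (0.99). In CD8 cells 3 were higher and 1 lower when expanded, where 18.1% of all genes were called higher and 17.3% lower. The higher count was thus near the share over all genes. In conventional CD4 cells 7 were higher and 1 lower, where 10.8% of all genes were called higher and 11.3% lower. Havcr2 (2.47), Il21 (2.31), Lag3 (2.0) and Il10 (1.66) led there.

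Factors known to oppose effector differentiation were mostly lower or not called. Of 8 stem-like and naive factors, all tested, 4 were lower and none higher in CD62L-low Treg (Bach2 -1.94, Lef1 -1.51, Klf2 -1.44, Satb1 -0.90), 6 lower and 1 higher in CD8 cells (Lef1 -1.83, Bach2 -1.49, Klf2 -1.41, Satb1 -1.41), and 5 lower and 1 higher in conventional CD4 cells (Satb1 -2.13, Lef1 -2.07, Bach2 -1.69, with Bcl6 1.18 the higher one). Their medians were -0.72, -1.01 and -0.82 in that order of lineages. When expanded, 1 was lower in Treg (Bach2 -2.28), 6 in CD8 cells and 5 in conventional CD4 cells, where 1 was higher. Over all tested genes, 1.16%, 17.3% and 11.3% were called lower when expanded, in the same order, and 10.8% higher in conventional CD4 cells. Of the 8 genes of the interleukin-12 and interferon path, 1 was higher and 1 lower in CD62L-low Treg, 2 and 4 in CD8 cells, and 4 and 3 in conventional CD4 cells. Il12rb2, a chain of the interleukin-12 receptor, was higher in CD62L-low conventional CD4 cells (1.31 ± 0.39, adjusted p = 0.0085) and lower in CD62L-low CD8 cells (-1.17 ± 0.45, adjusted p = 0.040, 3 of 4 libraries), and the difference between lineages was called (-2.48 ± 0.60, adjusted p = 0.016). Ifngr2 fell by 1.5 in Treg, by 2.25 in CD8 and by 2.12 in conventional CD4 cells. Of 6 ID and E protein partners 5 were tested, and 2, 3 and 1 were lower in CD62L-low Treg, CD8 and conventional CD4 cells, with none higher. Of 6 AHR response genes only 2 were tested, Tiparp and Lgals3, and 1 call was made by CD62L, Lgals3 in CD8 cells (1.77 ± 0.41, adjusted p = 0.0028). Of 14 other lineage and effector factors, 3 were higher and 1 lower in CD62L-low Treg, 6 and 2 in CD8 cells, and 8 and 2 in conventional CD4 cells.

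Over the 24 sums of library, lineage and CD62L, centred within each library, the genes whose level tracked a factor best were found by Pearson correlation among 10654 genes, as a description across sums that share libraries. Closest to Tbx21 were Gm17745 (0.91), Tstd3 (0.88), Sntb2 (0.85), Car5b (0.85) and Mrpl33 (0.85). Closest to Eomes were Dock5 (0.93), Slamf7 (0.90), Crtam (0.90), Kcnc1 (0.89) and Atp6v0a2 (0.89). Closest to Prdm1 were Mif4gd (0.94), Tlnrd1 (0.94), Pkm (0.93), Myo1c (0.93) and Map2k3 (0.93). Among the members, Prdm1 went with Batf (0.90) and Ahr (0.85) and Tbx21 with Id2 (0.77), whereas Tbx21 and Eomes gave 0.15 and Eomes and Ahr -0.54.

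Replicates 1 and 2 and replicates 3 and 4 were also fitted apart. Of 81 member calls over the 16 comparisons, 80 had the same direction in both pairs of libraries, the exception being Hopx in expanded CD8 cells. The pairs are parts of the same 4 libraries that made the calls. The shared direction was therefore largely set in advance and is no replication. Several calls fell short of the threshold within a pair.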

How the data were processed

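The authors deposited, per mRNA library, a filtered matrix of UMI counts per gene and barcode, a matrix of antibody counts and TCR contig tables, made with Cell Ranger 4.0.0 per the file headers; the submitters' processing notes also name the mm10 build and Seurat, with no role given. Barcodes were kept with at least 500 UMIs, 300 genes and 1 CD3 UMI, at most 8% mitochondrial UMIs, 1 TCR beta chain and 1 B cell marker UMI. No doublet caller was run. Counts were summed per library and population of at least 20 cells and tested with edgeR 4.0.16 in R 4.3.3 (TMM, filterByExpr, robust glmQLFit and glmQLFTest, library as a block, threshold 0.05), with DESeq2 1.42.0 as an alternative. In each fit only the first comparison was tried on simulated data, with the same spread set for every gene and no library effect. No Treg comparison and no difference between lineages was simulated. Populations of 1 library come from the same replicate, so the block pairs them; residual correlations between same-replicate sums ran from -0.108 to 0.345 over 51 pairs, 46 over 0. Shares of Tbx21 used exact sign-flip permutation tests in scipy 1.17.1. The library totals, 26861163 to 37834174 UMIs, set the counting precision.

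The 10 members and the 7 gene lists were chosen with earlier results of these data known. In each list at most the 4 called genes with the largest absolute log2 fold change were named, plus the 5 genes most correlated with Tbx21, Eomes and Prdm1. The Treg cycling and expansion comparisons, the fits of 2 libraries and the leaving out of myeloid-positive barcodes were chosen after seeing the data. Promoter windows for 9 of the 10 members came from RefSeq (GRCm38.p6); Ahr has none printed.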

Additional observations from a re-analysis of the deposited data

Results flagged for a closer look

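In 3 of 60 groups of 4 libraries, 1 library lay far from the other 3, which is the number that chance gives at 1 in 20. Prdm1 had 14.9 CPM in CD62L-high CD8 cells of replicate 3, Batf had 182 CPM in CD62L-low conventional CD4 cells of replicate 4, and Ahr had 24.6 CPM in CD62L-high CD8 cells of replicate 2, each the highest of its group.

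In 8 results the same contrast differed between CD8 and conventional CD4 cells by a test of the difference itself (CD8 minus conventional CD4, log2). The CD62L difference was smaller in CD8 cells for Tbx21 (-1.63), Stat4 (-1.04) and Hopx (-1.73). The cycling difference was lower in CD8 cells for Stat4 (-0.84). The expansion difference was larger in CD8 cells for Batf (0.91) and Id2 (0.69), and smaller for Irf4 (-0.82) and Stat4 (-0.71).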

How the results depend on the processing

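Over all members, comparisons and alternatives, 2467 of 2853 values kept their direction and side of the threshold, 185 fell short of it, 95 newly passed it, 9 changed sign with either value past it, and 97 changed sign where neither did; the cause was not tested. Those 9 were Stat4 between CD62L-low and CD62L-high CD8 cells (0.34 without cycling cells), Stat4 in CD8 minus conventional CD4 cells (0.04 without cycling cells, 0.01 thinned), Zeb2 in Treg minus conventional CD4 cells (0.16 with 1 cell per clonotype), Hopx in expanded CD8 cells (0.25 without cycling cells, 0.04 with 1 cell per clonotype, 0.20 thinned, 0.07 in replicates 1 and 2) and Hopx in Eomes-only cells (1.56 in replicates 1 and 2). The Tbx21 share of CD62L-low minus CD62L-high CD8 cells was 4.10 points with 1 cell per clonotype, 0.373 with CD62L at most 1 against at least 20, and -4.92 to 2.15 leaving out 1 replicate; CD8 minus conventional CD4 ran from -61.3 to -49.1 and Treg minus conventional CD4 from 13.0 to 23.8.

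The replicate block pairs populations of 1 library. Without it (no replicate block) the genes called were 361 for CD62L in Treg, 219 for the CD62L difference between lineages, 77 for the cycling difference, 263 for the expansion difference, 15 for Eomes-only minus Tbx21-only and 81 for expanded Treg, against 601, 389, 180, 525, 27 and 240 with it. Fitting only the compared populations gave 363 for CD62L in Treg and 55 for expanded Treg. Leaving out the low-count filter gave 489 for the cycling difference, 897 for the expansion difference, 130 for Eomes-only and 535 for expanded Treg. Leaving out cycling cells gave 2136 for CD62L in CD8 cells (4469), 2267 for CD8 minus conventional CD4 (4465), 1528 for expanded CD8 (3619), 194 for the expansion difference and 77 for Eomes-only. A CD11a count of at least 20 gave 272 for the cycling difference, and a cycling cut of 4 UMIs 271. Keeping B cell marker barcodes gave 382 for expanded Treg.

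With 1 cell per clonotype the counts were 323, 1142 and 2266 for CD62L in Treg, CD8 and conventional CD4 cells (4113), 1474 for CD8 minus conventional CD4, 59, 37 and 38 for the CD62L, cycling and expansion differences, 8, 1487 and 867 for expanded Treg, CD8 and conventional CD4 cells (2261), and 47 for Eomes-only. Thinned to 1500 UMIs they were 1554 and 2212 for CD62L in CD8 and conventional CD4 cells, 1103 and 1433 for Treg minus conventional CD4 (2603) and minus CD8 (2686), 1956 for CD8 minus conventional CD4, 194, 34 and 290 for the 3 differences, 849, 2136 and 1759 for cycling Treg (4355), CD8 (5876) and conventional CD4 (5729), 134, 1140 and 974 for expanded Treg, CD8 and conventional CD4 cells, and 8 for Eomes-only. With the stricter CD62L split they were 85 and 151 for the cycling and expansion differences, 40 and 2353 for expanded Treg and CD8 cells, and 9 for Eomes-only. Without myeloid-positive barcodes they were 1623 for Treg minus conventional CD4 and 54 for Eomes-only.

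In replicates 1 and 2 alone they were 255 and 2053 for CD62L in Treg and CD8 cells, 1382, 1553 and 1521 for Treg minus conventional CD4, Treg minus CD8 and CD8 minus conventional CD4, 100, 64 and 162 for the 3 differences, 2852 for cycling Treg, 2040 and 1203 for expanded CD8 and conventional CD4 cells, and 143 for Eomes-only. In replicates 3 and 4 alone they were 141 and 2350 for CD62L in Treg and conventional CD4 cells, 1138 for Treg minus conventional CD4, 92 and 307 for the cycling and expansion differences, 73 and 2269 for expanded Treg and CD8 cells, and 260 for Eomes-only.

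Leaving out 1 replicate gave 275 to 409, 3097 to 4364 and 2924 to 3686 for CD62L in Treg, CD8 and conventional CD4 cells, 1683 to 2043, 1910 to 2376 and 2910 to 4396 for Treg minus conventional CD4, Treg minus CD8 and CD8 minus conventional CD4, 107 to 381, 71 to 99 and 135 to 442 for the 3 differences, 3425 to 3963, 5225 to 5521 and 4894 to 5223 for cycling Treg, CD8 and conventional CD4 cells, 20 to 250, 2619 to 3199 and 1471 to 1861 for expanded ones, and 1 to 111 for Eomes-only. Low UMI numbers limit Eomes and Zeb2 in Treg and Tbx21 in CD62L-high Treg.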
